A study of Mus musculus with 18 samples.

Results

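The 6 genes described here, Lcn2, Serpina3n, Steap4, Aspg, Cd44 and Cd109, are known as genes that astrocytes switch on after injury. They were taken by name from a table of 34921 gene entries, where each has 1 entry, and were followed across 18 libraries of total RNA from punched pieces of mouse brain. The mice were 9-week-old C57BL/6 males, an inbred strain. In photothrombosis a light-sensitive dye, here rose bengal at 100 mg/kg given 5 min before 15 min of green laser light (532 nm, 40 mW, a fiber of 2 mm placed 2 mm right of bregma), clots the vessels under the beam. Each of 6 groups holds 3 libraries from 3 animals: the right side of sham mice (sham right), the right-side lesion at 4 h, 1 day, 3 days and 10 days, and left-side punches. The labels call the left-side punches sham, while the protocol takes them from mice with stroke and gives no time. They are called contralateral left here, and the labels do not say if any of them comes from the same mouse as a right-side library. In the titles, contralateral left 1 and 3 carry the same control numbers as sham right 1 and 3, and they were treated as separate animals.

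Astrocytes, the support cells of the brain, respond to tissue damage with a program called reactive astrogliosis. Cytokines of the interleukin 6 family act on it through receptors that contain gp130 and through the transcription factor STAT3, and interleukin 1 and tumour necrosis factor act through NF-kB. Published marker panels divide the induced genes into a pan-reactive set, an A1 set linked to systemic inflammation and an A2 set linked to ischemia. Lcn2, Serpina3n, Steap4, Aspg and Cd44 stand in the pan-reactive set and Cd109 in the A2 set. Several are also acute phase genes of the liver or are made by leukocytes, so the name of the set does not fix the cell that made the RNA in a punch.

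Promoters are shown for Lcn2 and Serpina3n, whose group means had the same order over time, and for Steap4, whose order differed. Each is a window of 300 bases around the annotated start from RefSeq (GRCm38.p6), beginning at position -250, written 5′ to 3′ on the strand of the gene. Capitals mark matches on either strand to TTCNNNGAA (STAT), the NF-kB consensus, TTGNGNAA (C/EBP), TGANTCA (AP-1) or TATAAA. The windows are Lcn2 at chr2:32387690-32387989 (minus strand), Serpina3n at chr12:104406458-104406757 (plus strand) and Steap4 at chr5:7960222-7960521 (plus strand). Positions refer to the RefSeq start. The Lcn2 window lies inside the gene span given below, which comes from another annotation and reaches 32388252.
Lcn2: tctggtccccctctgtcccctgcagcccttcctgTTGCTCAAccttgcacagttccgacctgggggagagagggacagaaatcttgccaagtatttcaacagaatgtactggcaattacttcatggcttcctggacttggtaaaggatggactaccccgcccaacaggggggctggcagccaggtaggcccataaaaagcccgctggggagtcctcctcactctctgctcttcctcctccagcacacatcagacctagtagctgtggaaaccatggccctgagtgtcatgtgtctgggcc
Serpina3n: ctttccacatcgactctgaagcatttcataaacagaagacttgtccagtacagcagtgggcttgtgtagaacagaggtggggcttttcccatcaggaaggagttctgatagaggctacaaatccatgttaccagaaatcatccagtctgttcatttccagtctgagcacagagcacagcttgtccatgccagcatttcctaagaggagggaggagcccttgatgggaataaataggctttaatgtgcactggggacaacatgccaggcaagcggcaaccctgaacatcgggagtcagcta
Steap4: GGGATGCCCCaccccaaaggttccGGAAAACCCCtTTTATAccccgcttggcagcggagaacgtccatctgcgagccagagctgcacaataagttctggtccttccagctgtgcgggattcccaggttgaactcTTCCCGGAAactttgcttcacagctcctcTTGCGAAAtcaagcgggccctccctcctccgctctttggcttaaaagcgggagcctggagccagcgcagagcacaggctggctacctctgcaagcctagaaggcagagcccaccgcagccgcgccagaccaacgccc
The Steap4 window held 1 STAT match, TTCCCGGAA, from -116 to -108 relative to the start, where -1 is the base before it. It also held NF-kB matches starting at -250 and -226, 1 C/EBP match (-87 to -80) and, on the other strand, TATAAA at -215 to -210. Lcn2 held 1 C/EBP match on the other strand (-216 to -209), and no match was found in the windows of Serpina3n, Aspg and Cd44. Of 32851 promoter windows of this length, 8.3% held the STAT letters, 8.46% the NF-kB consensus, 13.3% the C/EBP letters, 7.81% the AP-1 letters and 13.6% TATAAA. These are matches of letters and not measured sites.

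Levels are in FPKM, sequenced fragments scaled by transcript length and by the library's total. Fold changes are log2 values of FPKM + 1 with standard errors from limma, which understate the change of genes with low FPKM, so ratios of mean FPKM are given as well. Calls rest on limma's p adjusted by Benjamini-Hochberg over the 14016 genes with at least 1 FPKM in 3 or more libraries, at a threshold of 0.05. Of the members, 5 passed this filter, and Cd109, at 1 FPKM in only 2 libraries, did not. Steap4, Aspg and Cd44 reached 1 FPKM in stroke libraries alone, so that their lesion levels let them pass, and counts of members called are a description. The 4 lesion times share the sham right libraries and are not independent of each other. Depth can only be guessed from the smallest values, at a nominal 12.3 M to 29.5 M fragments per library. On that reading Lcn2 rested on 4.01 to 10.9 fragments in a sham library and on 1200 to 2990 at 3 days, so its folds against sham are imprecise. In a bulk punch, fewer cells of a type and less RNA per cell cannot be told apart.

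Lcn2 encodes lipocalin 2, a secreted protein that binds the iron carriers of bacteria (chromosome 2, 32384633 to 32388252 in GRCm38, protein-coding, 5 exon blocks). In sham right 1, 2 and 3 it was at 0.233, 0.142 and 0.0750 FPKM. At 4 h, libraries 2, 3 and 6 held 3.27, 6.37 and 4.93 FPKM. At 1 day, libraries 1, 3 and 4 held 15.9, 34.2 and 17.4 FPKM. The 3-day libraries 1, 2 and 8 held 42.4, 25.5 and 19.5 FPKM, and the 10-day libraries 1, 2 and 5 held 9.63, 5.24 and 8.81 FPKM. Each of the 12 lesion libraries lay above every sham library, and the libraries of 1 and 3 days overlapped. The mean was 32.4 times that of sham at 4 h, or 2.32 ± 0.30 on the log2 scale (limma adjusted p = 7.56e-04). It was 149.98 times sham at 1 day (4.27 ± 0.30, limma adjusted p = 8e-07) and 194 times sham at 3 days (4.64 ± 0.30, limma adjusted p = 2.14e-07). At 10 days the mean was still 52.6 times sham (2.92 ± 0.30, limma adjusted p = 4.25e-06). With contralateral left as the control, the 4 h difference was 1.16 and was not called (limma adjusted p = 0.0662).

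Serpina3n encodes a secreted inhibitor of serine proteases such as granzyme B and neutrophil elastase (chromosome 12, 104406729 to 104414329, protein-coding, 5 exon blocks). It was the most abundant member in every group by FPKM, and sham right 1, 2 and 3 lay close together at 6.74, 6.65 and 7.06. At 4 h libraries 2, 3 and 6 were at 14.0, 10.49 and 12.7 FPKM. At 1 day libraries 1, 3 and 4 were at 39.2, 67.8 and 87.8 FPKM. At 3 days libraries 1, 2 and 8 were at 165, 100.4 and 101 FPKM, and at 10 days libraries 1, 2 and 5 at 60.3, 48.6 and 64.2 FPKM. All lesion libraries lay above all sham libraries, and the 3-day libraries above those of every other group. At 4 h the mean was 1.82 times sham but was not called (0.77 ± 0.29, limma adjusted p = 0.196), and in a fit of sham right and 4 h alone it was (limma adjusted p = 0.0163). Serpina3n rose by 3.00 ± 0.29 at 1 day (9.53 times sham, limma adjusted p = 3.44e-05), 3.94 ± 0.29 at 3 days (17.9 times, limma adjusted p = 6.16e-07) and 2.90 ± 0.29 at 10 days (8.47 times, limma adjusted p = 3.38e-06). Related Serpina3 genes lie beside it in the genome and can share reads, and how shared reads were assigned is not known here. Serpina3k was not analysed. The highest group mean among Serpina3c, Serpina3f, Serpina3g, Serpina3h, Serpina3i and Serpina3m was 1.09 FPKM, of Serpina3g at 10 days.

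**Figure D1:**
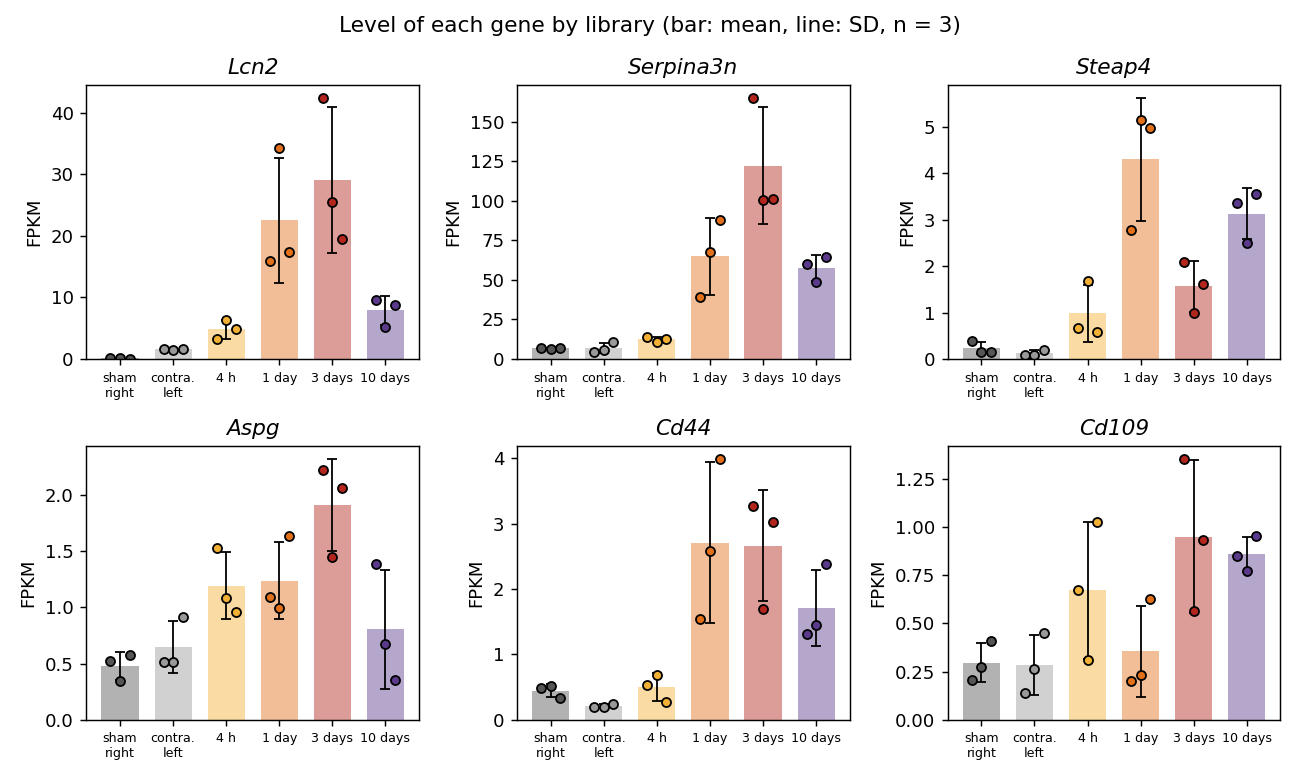
FPKM of each member (vertical axis, linear, from 0, with its own scale in each panel) in the 6 groups on the horizontal axis. Points are single libraries, bars the mean of 3 and lines the SD. Lcn2, Serpina3n, Aspg and Cd109 had their highest mean at 3 days, while Steap4 was at 4.3 FPKM at 1 day, 1.56 at 3 days and 3.13 at 10 days.

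Steap4 encodes a membrane metalloreductase that reduces iron and copper and is induced by tumour necrosis factor (chromosome 5, 7960457 to 7982213, protein-coding, 5 exon blocks). Sham right 1, 2 and 3 held 0.385, 0.149 and 0.160 FPKM. At 4 h libraries 2, 3 and 6 held 0.676, 1.68 and 0.592 FPKM, and at 1 day libraries 1, 3 and 4 held 2.78, 5.14 and 4.98 FPKM. At 3 days libraries 1, 2 and 8 were at 2.08, 0.994 and 1.61 FPKM, and at 10 days libraries 1, 2 and 5 were at 3.36, 2.50 and 3.55 FPKM. The 3-day libraries thus lay below all libraries of 1 day and of 10 days and above all of sham. Steap4 rose by 2.08 ± 0.22 at 1 day (18.6 times sham, limma adjusted p = 7.73e-05), 1.04 ± 0.22 at 3 days (6.75 times, limma adjusted p = 0.00546) and 1.74 ± 0.22 at 10 days (13.5 times, limma adjusted p = 3.9e-05). At 4 h the difference of 0.65 ± 0.22 was not called (limma adjusted p = 0.146), and with a pseudocount of 0.1 it was 1.64 and was called (limma adjusted p = 0.041).

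Aspg encodes an asparaginase, an enzyme that splits asparagine (chromosome 12, 112106679 to 112127559, protein-coding, 15 exon blocks). Sham right 1, 2 and 3 held 0.522, 0.342 and 0.580 FPKM, against 1.53, 1.09 and 0.958 in the 4 h libraries 2, 3 and 6. At 1 day libraries 1, 3 and 4 held 1.09, 0.994 and 1.63 FPKM, and at 3 days libraries 1, 2 and 8 held 2.22, 1.44 and 2.06 FPKM. At 10 days libraries 1, 2 and 5 were spread over 1.39, 0.672 and 0.353 FPKM. The libraries of 4 h, 1 day and 3 days lay above every sham library, while those of 10 days overlapped sham. Only the 3-day difference was called, at 0.97 ± 0.19 (3.97 times sham, limma adjusted p = 0.00311). The differences were 0.56 ± 0.19 at 4 h (limma adjusted p = 0.150), 0.59 ± 0.19 at 1 day (limma adjusted p = 0.239) and 0.25 ± 0.19 at 10 days (limma adjusted p = 0.493). In a fit of sham right and 4 h alone, and in one without contralateral left 5 and 10 day 5, the 4 h difference was called (limma adjusted p = 0.05 and 0.0359).

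Cd44 encodes the receptor for hyaluronan and osteopontin on reactive astrocytes and on leukocytes (chromosome 2, 102811141 to 102901665, protein-coding, 19 exon blocks). Sham right 1, 2 and 3 were at 0.487, 0.519 and 0.334 FPKM and the 4 h libraries 2, 3 and 6 at 0.527, 0.692 and 0.275. At 1 day libraries 1, 3 and 4 reached 1.55, 2.58 and 3.99 FPKM. At 3 days libraries 1, 2 and 8 were at 3.27, 1.69 and 3.03 FPKM, and at 10 days libraries 1, 2 and 5 at 1.31, 1.45 and 2.38 FPKM. The 4 h libraries overlapped sham, and from 1 day on every lesion library lay above it. Cd44 rose by 1.31 ± 0.22 at 1 day (6.06 times sham, limma adjusted p = 0.00532), 1.31 ± 0.22 at 3 days (5.96 times, limma adjusted p = 8.64e-04) and 0.89 ± 0.22 at 10 days (3.83 times, limma adjusted p = 0.0187). The 10-day call ended without sham right 1, sham right 3 or 10 day 5 (limma adjusted p = 0.0527, 0.0812 and 0.108). It ended as well without the filter on low values (0.0526) and without contralateral left 5 and 10 day 5 (0.72, limma adjusted p = 0.104). Of the genes whose products cut hyaluronan, Hyal1, Hyal2 and Cemip were tested, and none was called at any time. Spp1, which encodes osteopontin, rose at 3 days (4.64 ± 0.50, limma adjusted p = 1.28e-05) and 10 days (5.87 ± 0.50, limma adjusted p = 7.02e-07).

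Cd109 encodes a surface protein of the alpha-2-macroglobulin family that binds TGF-beta (chromosome 9, 78615546 to 78716253, protein-coding, 33 exon blocks). It was at 0.209, 0.275 and 0.407 FPKM in sham right 1, 2 and 3 and at 0.671, 0.312 and 1.03 in the 4 h libraries 2, 3 and 6. At 1 day libraries 1, 3 and 4 held 0.202, 0.234 and 0.628 FPKM. At 3 days libraries 1, 2 and 8 held 1.35, 0.563 and 0.932 FPKM, and at 10 days libraries 1, 2 and 5 held 0.850, 0.769 and 0.952 FPKM. Sham and the lesion overlapped at 4 h and 1 day and did not at 3 and 10 days. Tested without the filter, the differences were 0.57 ± 0.18 at 3 days (3.2 times sham, limma adjusted p = 0.125) and 0.52 ± 0.18 at 10 days (2.89 times, limma adjusted p = 0.19), so that none was called. The antisense gene 4921509A06Rik overlaps the span of Cd109, with no exonic base in common.

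Set side by side, 1 of the 5 tested members was called higher than sham right at 4 h (Lcn2), where 1.32% of all genes tested were called higher. At 1 day 4 of 5 were called higher, all but Aspg, against 0.899% of all genes. At 3 days all 5 were, against 6.91%, and at 10 days 4 of 5, all but Aspg, against 6.21%. None was called lower at any time, where 0.863%, 0.278%, 0.457% and 0.92% of all genes were. With Cd109 included, 4 of 6 members lay above sham without overlap at 4 h, as did 18.8% of all genes tested. This held for 5 of 6 at 1 day against 14.3%, all 6 at 3 days against 27.2%, and 5 of 6 at 10 days against 13.8%. Scaling the libraries to equal medians moved the median of all genes by -0.13 at 3 days against sham, and no call of a member in the comparisons with sham right changed under it or under scaling without mitochondrial genes.

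**Figure D2:**
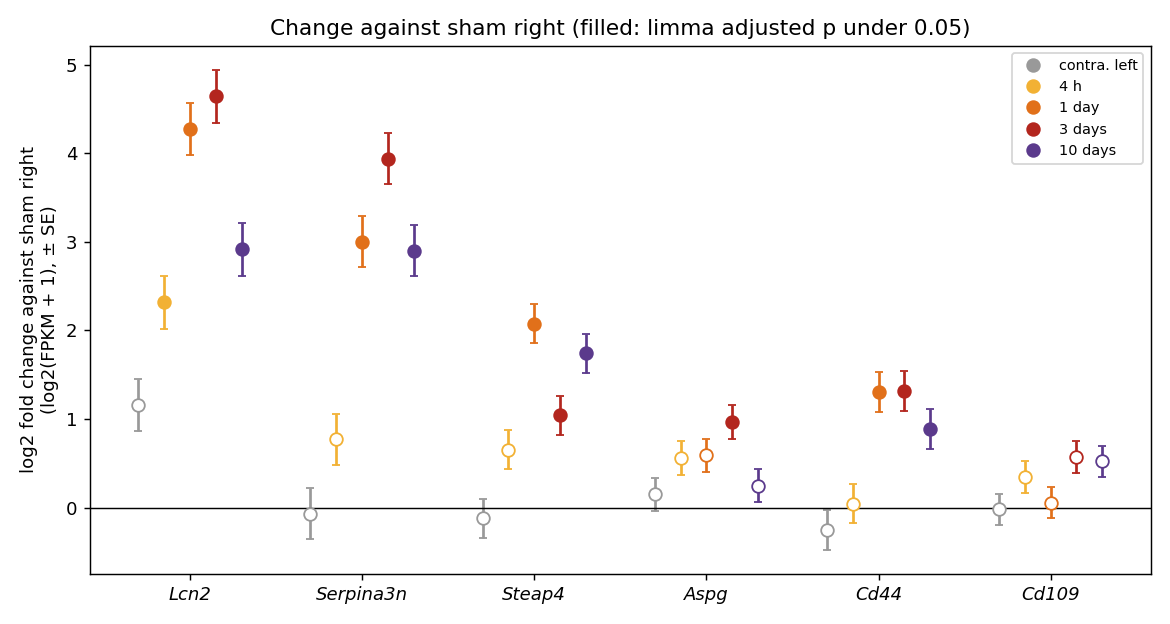
Log2 fold change of FPKM + 1 against sham right (vertical axis, ± SE from limma) for the 6 members on the horizontal axis. Colours are the left-side punches and the 4 lesion times, filled points were called, and the SE of Cd109 comes from the fit without the filter. All filled points lie above 0.

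Of the steps between neighbouring times, that from 4 h to 1 day had the most members called higher. In that step 4 of 5 tested members were called higher, against 0.849% of all genes: Serpina3n by 2.24 ± 0.29 (limma adjusted p = 0.00123), Lcn2 by 1.96 ± 0.30 (limma adjusted p = 0.00393), Steap4 by 1.43 ± 0.22 (limma adjusted p = 0.00422) and Cd44 by 1.26 ± 0.22 (limma adjusted p = 0.00799). The call of Cd44 ended without 4 h library 6 (limma adjusted p = 0.0502). In a fit of these 2 groups alone, the calls of Lcn2 (limma adjusted p = 0.0505), Steap4 (0.0689) and Cd44 (0.0769) ended. Aspg differed by 0.03 ± 0.19 in this step.

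From 1 to 3 days Steap4 fell by 1.04 ± 0.22 on the log2 scale (limma adjusted p = 0.00844), the single member called, where 0.15% of all genes were called lower and 5.07% higher. This call ended without 1 day library 3 (limma adjusted p = 0.0565), in a fit of these 2 groups alone (0.0532) and with a pseudocount of 0.1 (0.0519). Its libraries did not overlap, as for 4.86% of all genes that were lower. Serpina3n was higher at 3 days without overlap, as were 16.9% of all genes, but was not called (0.94 ± 0.29, limma adjusted p = 0.0812), and without 1 day library 4 it was (limma adjusted p = 0.0325). The difference was 0.37 ± 0.30 for Lcn2 and 0.01 ± 0.22 for Cd44. From 3 to 10 days Lcn2 fell by 1.73 ± 0.30 on the log2 scale (limma adjusted p = 0.00476), where 1.19% of all genes were called lower. In a fit of these 2 groups alone that call ended (limma adjusted p = 0.186). In that step Serpina3n differed by -1.04 ± 0.29 (limma adjusted p = 0.0862), Aspg by -0.72 ± 0.19 (limma adjusted p = 0.0693), Cd44 by -0.43 ± 0.22 (limma adjusted p = 0.32) and Steap4 by 0.70 ± 0.22 (limma adjusted p = 0.136), and the difference of Aspg was called without 10 day library 1 (limma adjusted p = 0.0129). Serpina3n was lower without overlap, as were 20.1% of all genes, and Steap4 higher without overlap, as were 5.77%. The median of all genes in this step was -0.15, and equal medians shift every difference by 0.15.

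A ratio within a library is free of scaling between libraries. Steap4, as a percent of Serpina3n in the same library, was at 7.08%, 7.58% and 5.67% in the 1 day libraries 1, 3 and 4. It was at 1.26%, 0.991% and 1.59% in the 3-day libraries 1, 2 and 8 and at 5.56%, 5.13% and 5.52% in the 10-day libraries 1, 2 and 5. The 3-day libraries were the lowest of these 9, with a difference from 1 day of 2.42 on the log2 scale (exact permutation test, two-sided, p = 0.1, the smallest that 3 against 3 libraries can give). This ratio was chosen after the values were seen. Serpina3n, the denominator, was itself higher at 3 days than at 1 day (0.94 ± 0.29), which lowers any ratio to it. From 1 to 3 days the ratio to Serpina3n also fell for Cd44, by 0.92 (exact permutation test, two-sided, p = 0.1). For Lcn2 it fell by 0.56 (the same exact permutation test, p = 0.3). In order of group means over the lesion times and sham, Lcn2 was highest at 3 days, then 1 day (77.2% of its highest mean), 10 days (27.1%), 4 h (16.7%) and sham (0.515%). Serpina3n followed the same order (53.2% at 1 day, 47.2% at 10 days and 5.58% in sham), with 1 and 10 days overlapping. Steap4 ran 1 day, 10 days (72.9%), 3 days (36.4%), 4 h (22.9%) and sham (5.39%). Cd44 at 3 days was at 98.4% of its 1 day mean, within their spread.

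**Figure D3:**
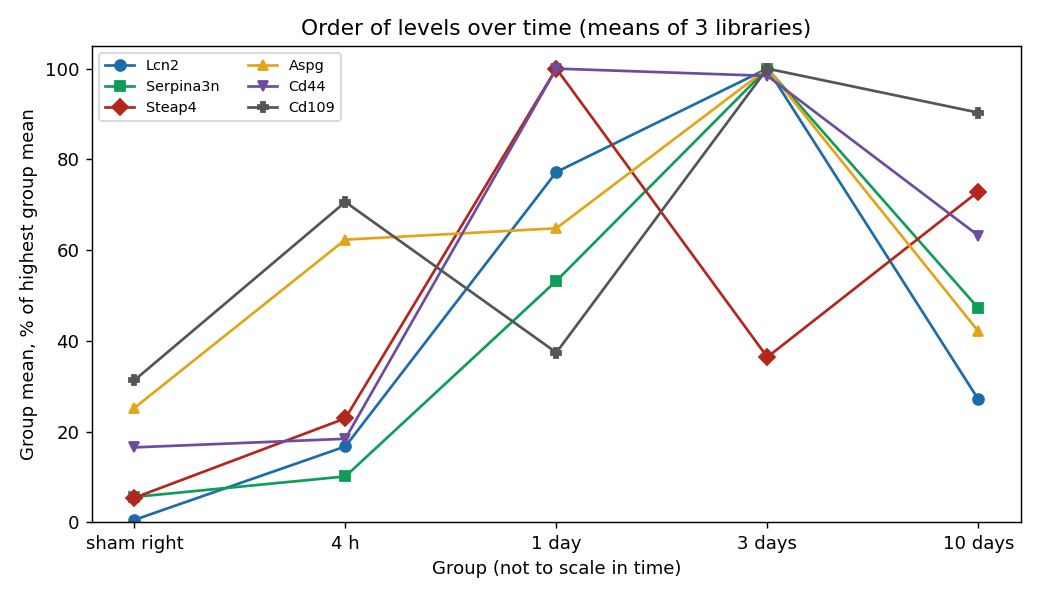
Group mean FPKM of each member as a percent of its own highest group mean (vertical axis) in sham right and at the 4 lesion times (horizontal axis, in order but not to scale). Each line is 1 member and each point a mean of 3 libraries. Steap4 dips to 36.4% at 3 days, where Lcn2, Serpina3n, Aspg and Cd109 have their highest mean.

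In the left-side punches, Lcn2 was at 1.55, 1.45 and 1.69 FPKM in contralateral left 1, 3 and 5, each above every sham right library, with a mean 10.4 times that of sham. The difference of 1.16 ± 0.30 was not called (limma adjusted p = 0.383), while with a pseudocount of 0.1 it was 2.78 and was called (limma adjusted p = 0.0107). It was called as well without contralateral left 5 and 10 day 5 (1.12, limma adjusted p = 0.0392), where 2760 of all genes tested were called. With only contralateral left 5 left out, neither Lcn2 nor any other member was called. None of the 5 tested members was called in this comparison by limma, 1 of them (Lcn2) had an unadjusted p under 0.05, and 0.0285% of all genes were called (4 genes, but 1213 without contralateral left 5), while 3.6% were higher without overlap. Cd44 lay below every sham library in contralateral left 1, 3 and 5, at 0.193, 0.192 and 0.248 FPKM, as did 8.29% of all genes, and was not called (-0.25 ± 0.22, limma adjusted p = 0.86). Serpina3n (4.50, 5.45 and 10.6 FPKM), Steap4 (0.0864, 0.0926 and 0.205), Aspg (0.509, 0.518 and 0.912) and Cd109 (0.137, 0.266 and 0.450) overlapped sham right. Library 5 was the highest of the 3 for all 6 members. It also had the highest median of log2(FPKM + 1) over all genes tested, 2.67 against 2.38 and 2.42 in libraries 1 and 3.

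Of the 8 other pan-reactive genes, all measured, 1 was called higher than sham at 4 h, 7 at 1 day, 8 at 3 days and 6 at 10 days, and none lower. Of all genes tested, 1.32%, 0.899%, 6.91% and 6.21% were called higher at these times. The medians of the log2 fold changes of these 8 genes were 0.26, 1.58, 1.38 and 1.43, beside 0.01, 0.03, 0.08 and -0.07 over all genes tested. Hspb1, a small heat shock protein, was the one called at 4 h (0.84 ± 0.17, limma adjusted p = 0.0138), a call that ended without sham right 1, 2 or 3 or 4 h library 3 (0.0562 to 0.0827). Gfap encodes the main intermediate filament protein of astrocytes and was at 51.1, 42.7 and 53.0 FPKM in sham right 1, 2 and 3. It was at 149, 204 and 290 FPKM in the 1 day libraries 1, 3 and 4 and at 517, 362 and 424 in the 3-day libraries 1, 2 and 8. Gfap thus rose further from 1 to 3 days (1.05 ± 0.26, limma adjusted p = 0.0218). No member was called higher in that step, but Serpina3n differed by a similar amount (0.94 ± 0.29, limma adjusted p = 0.0812). Gfap was not tested against the members. That call of Gfap ended without 1 day library 1 or 3 or 3-day library 1 or 8 (limma adjusted p from 0.0778 to 0.143), with equal medians (0.0689), without the filter (0.061) and in a fit of the 2 groups alone (0.0618). Vim, another intermediate filament, rose by 2.28 ± 0.24 in that step (limma adjusted p = 2.45e-05). Hspb1, named here after its values were seen, was the single gene of this list called lower in that step, where it fell by 0.97 ± 0.17 on the log2 scale (limma adjusted p = 0.00192), as Steap4 did.

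Of 11 other genes of the A2 panel 8 passed the filter, and 2, 4, 5 and 2 of them were called higher at 4 h, 1 day, 3 days and 10 days (medians 0.33, 0.96, 1.23 and 0.58). Of all genes tested, 1.32%, 0.899%, 6.91% and 6.21% were called higher at these times. Cd14, the lipopolysaccharide co-receptor, was called at all 4 times, and at 4 h Ptgs2, the inducible cyclooxygenase, was the other. The call of Ptgs2 ended without any 1 of sham right 1, 2 and 3 and 4 h libraries 3 and 6 (limma adjusted p from 0.0583 to 0.151) and without the filter (0.0728). Tgm1, a transglutaminase, rose by 3.86 ± 0.21 at 1 day and Ptx3, a pentraxin, by 4.34 ± 0.27 (limma adjusted p = 7.01e-08 and 2.41e-07). Tgm1, Ptx3, Clcf1 and Emp1 of the A2 panel and Osmr and Cxcl10 of the pan-reactive list reached 1 FPKM in lesion libraries alone. Their lesion levels let them pass the filter, so the counts of genes called in these lists are a description. Of 11 A1 genes 10 were tested, with 1, 0, 5 and 6 called higher (medians -0.02, 0.32, 0.94 and 1.04). The one at 4 h was Fkbp5, a co-chaperone of the glucocorticoid receptor (2.05 ± 0.30, limma adjusted p = 0.00195), which was not called against contralateral left (0.94, limma adjusted p = 0.113). Among those at 3 and 10 days were H2-D1, a class I gene that can share reads with its paralogs, and Psmb8, a subunit of the immunoproteasome. Ggta1, also called at both times, reached 1 FPKM in lesion libraries alone, so the counts of this panel are a description as well. At 1 day, where none of the A1 genes passed limma's adjusted p, 3 had an unadjusted p under 0.05 and Gbp2 had the lowest adjusted p (limma, 0.161).

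**Figure D4:**
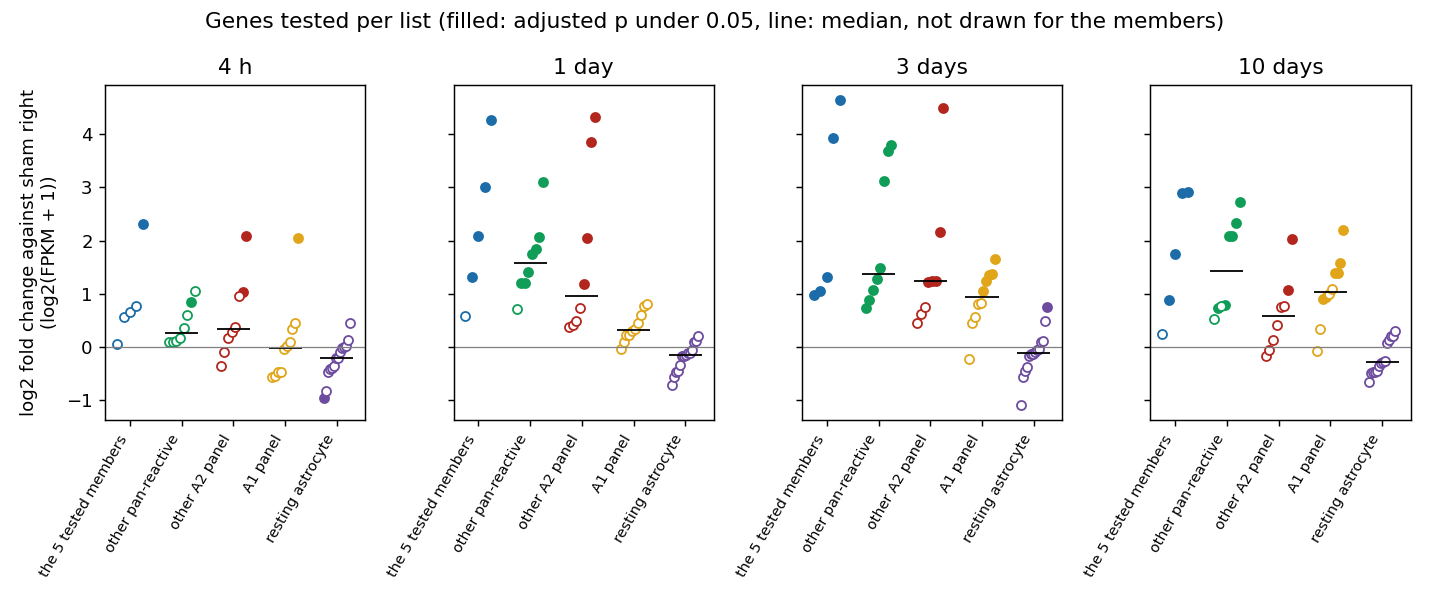
Log2 fold change of FPKM + 1 against sham right (vertical axis) of every tested gene in 5 lists (horizontal axis) at 4 h, 1 day, 3 days and 10 days, 1 panel each. Filled points were called by limma and lines are medians, left out for the members. At 1 day the other pan-reactive genes have 7 filled points of 8 and the A1 panel none of 10.

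Of 16 genes that signal in the acute phase response 12 were tested, and 3, 5, 7 and 2 were called higher at 4 h, 1 day, 3 days and 10 days, none lower (medians 0.46, 0.59, 0.86 and 0.41). The shares of all genes called higher were 1.32%, 0.899%, 6.91% and 6.21%. At 4 h the listed genes called were Socs3, the feedback inhibitor of gp130 receptors (1.5 ± 0.27, limma adjusted p = 0.00771), and the transcription factors Cebpb and Cebpd. The call of Socs3 at 4 h ended without sham right 3 (limma adjusted p = 0.0518). That of Cebpb ended without any 1 of the 6 libraries (0.0533 to 0.172), and that of Cebpd without any sham right library or 4 h library 2 or 3 (0.0583 to 0.0855). Neither Cebpb nor Cebpd was called without the filter (limma adjusted p = 0.0948 and 0.0552) or against contralateral left (0.376 and 0.186). Socs3 was at 1.61, 0.900 and 0.981 FPKM in sham right 1, 2 and 3, at 5.29, 7.34 and 9.71 in the 1 day libraries 1, 3 and 4, and at 2.03, 2.54 and 0.720 in the 10-day libraries 1, 2 and 5. At 10 days it overlapped sham (0.30 ± 0.27, limma adjusted p = 0.565). Stat3 rose at 1 day (1.08 ± 0.19, limma adjusted p = 0.00651) and 3 days (0.91 ± 0.19, limma adjusted p = 0.00478). The receptor subunits Osmr (1.20 ± 0.20) and Tnfrsf1a (1.35 ± 0.19) rose at 1 day, while Il6st, which encodes gp130, was called at no time. The ligands Il6, Osm and Lif stayed under the filter, with group means up to 0.364, 0.489 and 0.915 FPKM. Il6ra, called at 10 days, and Il1b reached 1 FPKM in lesion libraries alone, so the counts of this list are a description. The lists that follow can hold such genes too, and their counts are read in the same way.

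Among relatives and partners of the members, 14 of 27 were tested and 0, 2, 5 and 5 were called higher at the 4 times (medians -0.05, 0.13, 0.06 and -0.04). The shares of all genes called higher were 1.32%, 0.899%, 6.91% and 6.21%. A2m, alpha-2-macroglobulin, a secreted protease trap of the family of Cd109, rose at 1 day (2.02 ± 0.23), 3 days (2.21 ± 0.23) and 10 days (1.97 ± 0.23; limma adjusted p = 1.66e-04, 1.02e-05 and 2.04e-05). The complement proteins C3 and C4b, of the same family, rose as well, C4b from 1 day and C3 from 3 days. The call of C4b at 1 day ended without sham right 2 or 1 day library 4 (limma adjusted p = 0.0608 and 0.073). That of C3 at 3 days ended without any sham right library or 3-day library 1 (0.0921 to 0.274), without the filter, in the fit of 2 groups and under both scalings (0.0864 to 0.134). Of the other metalloreductases Steap3 rose at 3 days (0.64 ± 0.12) and 10 days (0.60 ± 0.12; not called in a fit of sham right and 10 days alone, limma adjusted p = 0.0947), and Steap1 and Steap2 were not called. Slc22a17, a receptor for lipocalin 2, was at 132 FPKM in sham and 129 at 3 days and was called at no time, and Lrp2, another, had group means up to 0.0383 FPKM.

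Over the 18 libraries, the correlations of log2(FPKM + 1) between members are given as a description, since group differences and library scale enter all of them. The 15 pairs had a median Pearson r of 0.676. The closest pairs were Serpina3n with Cd44 (0.934) and with Lcn2 (0.907), and the most distant were Steap4 with Cd109 (0.347) and with Aspg (0.422). Among all genes tested, the 3 most like Lcn2 were Hmox1, the heme-degrading enzyme (0.943), Ch25h (0.934) and Pla1a (0.911). Serpina3n was most like A2m (0.977), Arhgap25 (0.957) and Il4ra (0.955), and Cd44 most like S1pr3 (0.969), another pan-reactive gene, Tnfrsf1a (0.948) and AI506816 (0.948). Steap4 was most like Hsp25-ps1 (0.912), a pseudogene whose reads may come from Hspb1, then Ccl12 (0.907) and Mmp3 (0.884). Aspg was most like Nop9 (0.898), Nes (0.891) and Gsr (0.886), and Cd109 most like Nhlrc3 (0.891), B4galt1 (0.891) and Antxr1 (0.887).

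Markers of the cells that could hold these transcripts were summed per library. The 14 resting astrocyte markers, all detected, summed to 644 to 713 FPKM in sham right, 556 to 612 at 4 h, 580 to 608 at 1 day, 502 to 642 at 3 days and 578 to 691 at 10 days. Of these, Aqp4, which forms water channels, was called lower at 4 h (-0.96, limma adjusted p = 0.0067) and Aldh1l1, a folate enzyme, higher at 3 days (0.74, limma adjusted p = 0.0322). Over all genes tested, 0.863% were called lower at 4 h and 6.91% higher at 3 days. The call of Aqp4 ended without sham right 3 (limma adjusted p = 0.0533) and against contralateral left (0.0513). That of Aldh1l1 ended without any sham right library or 3-day library 1 or 8 (0.0658 to 0.144), without the filter (0.0819) and against contralateral left (0.147). Neutrophils also make Lcn2. The 11 measured neutrophil markers summed to 1.87 to 6.8 FPKM in sham right, 6.44 to 17.7 in contralateral left, 8.47 to 23.6 at 4 h, 7.53 to 28.4 at 1 day, 8.19 to 13.5 at 3 days and 9.87 to 16.1 at 10 days. Only 4 of them were tested, and 0, 0, 1 and 1 were called higher than sham at the 4 lesion times. Csf3r was the one called at 3 and at 10 days. The shares of all genes called higher were 1.32%, 0.899%, 6.91% and 6.21%. The neutrophil marker S100a8 was at 1.5, 5.09 and 1.06 FPKM in the 4 h libraries 2, 3 and 6 and at 1.80, 5.61 and 2.39 in the 1 day libraries 1, 3 and 4, and at both times library 3 was also the highest in Lcn2. In the other groups the highest library was not the same: contralateral left 3 was highest in S100a8 (6.46 FPKM) and lowest in Lcn2, 3-day library 8 was highest in S100a8 (2.15 FPKM) and lowest in Lcn2, and at 10 days library 5 was highest in S100a8 and library 1 in Lcn2. Ly6g, which defines neutrophils, was listed at 0 in all libraries of sham, 4 h, 1 day and 3 days and was at 0.0389 FPKM or less at 10 days, while contralateral left 1, 3 and 5 held 0.0280, 0.0515 and 0.0357 FPKM. The markers Ngp, Camp and Ltf were at 0 in all 1 day libraries as well. Markers other than S100a8 are not set against Lcn2 library by library here. The part of neutrophils in the Lcn2 values was not tested.

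Cd44 is carried by leukocytes too. The 6 common leukocyte genes summed to 32.2 to 39.6 FPKM in sham right, 43.3 to 49.8 at 1 day, 81.1 to 117 at 3 days and 135 to 242 at 10 days. Monocyte and macrophage markers, all 12 detected, summed to 23.8 to 30.6, 44.3 to 61.2, 142 to 287 and 629 to 2130 FPKM in the same groups. Lyz2, which encodes a lysozyme, held most of the last sum, with 624, 512 and 1900 FPKM in the 10-day libraries 1, 2 and 5. Not all markers of this list followed it: the mean of Mrc1 was 2.29 FPKM at 3 days and 1.87 at 10 days. That of Msr1 was 3.54 and 3.44. Of the 11 tested, 8 were called higher than sham at 3 days and 9 at 10 days, where 6.91% and 6.21% of all genes were. From 3 to 10 days 2 were called higher and 0 lower, with a median of 0.23 beside -0.15 over all genes. Of the 6 common leukocyte genes 5 were called higher than sham at 3 days and 5 at 10 days. The mean of Cd44 at 10 days was 63.2% of its highest, at 1 day. T cell markers, all 8 in the table, summed to no more than 8.51 FPKM in a library, at 10 days, with Cd3d at 0 in all sham libraries. The part of leukocytes in the Cd44 values was not tested.

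Markers of other cells moved beside the members as well. Of all genes tested, 1.32%, 0.899%, 6.91% and 6.21% were called higher than sham at 4 h, 1 day, 3 days and 10 days. The shares called lower were 0.863%, 0.278%, 0.457% and 0.92%. Of 10 microglia markers, all tested, 0, 1, 5 and 5 were called higher at 4 h, 1 day, 3 days and 10 days, and 2 were called lower at 4 h. Of 10 endothelial markers 0, 0, 2 and 0 were called higher, 3 lower at 4 h and 1 lower at 1 day. The call of Kdr at 4 h ended without any 1 of the 6 libraries (limma adjusted p from 0.0863 to 0.159) and against contralateral left (0.624). At 3 days those of Pecam1 and Slc2a1 ended without any 1 sham right library or 3-day library 1 (0.0601 to 0.136). Against contralateral left, Tek at 4 h, Itm2a at 1 day and Slc2a1 at 3 days were not called (0.0901, 0.0536 and 0.183). Of 8 pericyte and fibroblast markers 0, 0, 1 and 4 were called higher, with a median of 1.02 at 10 days. The call of Dcn at 10 days ended without 10 day library 5 (limma adjusted p = 0.0584). Of 8 neuron markers limma called none at any of these times, with 1 (Nefl, at 10 days) at an unadjusted p under 0.05. Their part in the values of the members was not tested.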

How the data were processed

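Total RNA of 18 libraries was sequenced after preparation with a VAHTS total RNA kit, per the labels' protocols. The submitters' processing notes name Trimmomatic 0.36 (trimming), HISAT2 2.1.0 (alignment) and StringTie 1.3.4d (assembly), and build GRCm38; settings, annotation and strand handling are not given in the sources used here. The deposited FPKM were used unscaled. FPKM shares a library total, so a library with more mitochondrial RNA (24.4% to 44.6% of summed FPKM, the most in 10 day library 5) has lower values elsewhere. The copy used here ends inside a line and its 34921 complete entries were used. Any entries past that point were not analysed, so the shares of all genes tested leave them out. Gene coordinates are from GENCODE M21 (GRCm38), matched by identifier for 34797 entries.

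In R 4.3.3, limma 3.58.1 was run on log2(FPKM + 1) (trend and robust moderation), with 1 mean per group over all 18 libraries, for 8 comparisons, and was tested on simulated data. The unit of replication is the mouse. The members, the 14 gene lists and the tests were chosen with earlier results of these data known. Genes named from lists were at most 2 per direction with the smallest adjusted p in a comparison with sham right, all where 5 or fewer were called, a fixed panel, and the 3 genes most like each member. Of the listed genes Has3, Serpina3k and Elane were not analysed here. Alternatives were another pseudocount, no filter, 2 other scalings, fits of 2 groups, the title number as a block, left-out libraries and contralateral left as the control.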

Additional observations from a re-analysis of the deposited data

Results flagged for a closer look

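Levels of 4 members differed between neighbouring lesion times by a direct test of the difference (limma, adjusted p under 0.05). Between 4 h and 1 day the log2 differences were 1.96 for Lcn2, 2.24 for Serpina3n, 1.43 for Steap4 and 1.26 for Cd44, each higher at 1 day. Between 1 and 3 days Steap4 differed by -1.04, lower at 3 days. Between 3 and 10 days Lcn2 differed by -1.73, lower at 10 days. The settings and left-out libraries that ended such a call are given beside it above, except the replicate block, which ended all of them but that of Lcn2 between 3 and 10 days, with its values below. Groups of 3 libraries are too small for a test of single outlying libraries.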

How the results depend on the processing

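Of 548 values of the members under an alternative, 518 kept their side of the threshold, 21 lost a call, 9 gained one, and no called value changed sign. The number of tested members called moved by more than 1.5 times as follows. It went to 2 with a pseudocount of 0.1, 3 in a fit of the 2 groups alone, 2 without contralateral left 5 and 10 day 5, and 0 with contralateral left as the control at 4 h (main 1). In contralateral left against sham it went to 1 with a pseudocount of 0.1 and 1 without those 2 libraries (main 0). In 3 days against 1 day it went to 0 with a pseudocount of 0.1 and in the 2 groups alone and to 2 without those 2 libraries (main 1). In 1 day against 4 h it went to 1 in the 2 groups alone (main 4), and in 10 days against 3 days to 0 (main 1). Contralateral left and sham right share the title numbers 1 and 3 (correlations of deviations 0.219 and 0.102). Title numbers shared by 2 groups neither show nor exclude pairing, since a comparison has at most 2 such pairs (correlations from -0.227 to 0.409). With this number as a replicate block, 0 members were called in 1 day against 4 h (limma adjusted p = 0.0859 for Lcn2 and for Serpina3n, 0.234 for Steap4 and 0.364 for Cd44) and 0 in 3 days against 1 day (Steap4 -0.71, 0.236). The block also ended the calls of Cd44 at 1 day (1.01, 0.103) and Aspg at 3 days (0.90, 0.059), which leaves 3 and 4 members, and genes called were 106 at 4 h, 62 at 1 day, 1 in contralateral left, 13, 377 and 142 in the 3 steps. At 10 days 3 members (main 4) were called without the filter and without contralateral left 5 and 10 day 5. Of 2334 values of other named genes 357 lost a call and none changed sign; the block ended 56, the fits of 2 groups 32 and the fit without a filter 30.

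Over all genes, 306, 165, 1032 and 1000 were called at 4 h, 1 day, 3 days and 10 days, 4 in contralateral left, and 172, 732 and 283 in the 3 steps. Fits of 2 groups gave 761, 323 and 1834 at 4 h, 1 day and 3 days, 0 in contralateral left, and 65 and 3 in the first and last step. Without contralateral left 5 and 10 day 5 there were 1806, 418 and 1772 at these times, 2760 in contralateral left, and 706 and 1290 in the first 2 steps. Contralateral left as the control gave 176 at 4 h. A pseudocount of 0.1 gave 173 in the last step, and in contralateral left no filter gave 0 and equal medians 2. Leaving out 1 library gave 90 to 194, 85 to 156, 680 to 1050 and 737 to 1161 genes at the 4 times, 0 to 1213 in contralateral left (1213 without its library 5), and 70 to 124, 399 to 795 and 160 to 336 in the steps; members called were then 1, 4, 5 and 3 to 4, 0, and 3 to 4, 0 to 2 and 1 to 2. The causes were not tested. Sham levels under 1 FPKM limit the folds of all members but Serpina3n.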
